A study of Homo sapiens with 7 samples.

Results

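The genes described here encode the enzymes of cholesterol and fatty acid synthesis, together with regulators and carriers of the same lipids, in SUM159 cells with and without knockdown of SHP2. The list of 32 genes was put together from known pathway roles, with earlier results of these data known. Of these, 30 had a probe that the array annotation assigns to 1 gene symbol, out of 18417 such genes, and these 30 were analysed. FDFT1 and HSD17B7, enzymes of the sterol branch, had no probe assigned to 1 symbol and were not analysed here. The measured members fall into 7 genes of the mevalonate pathway, 9 of the sterol branch, 4 of sterol sensing and transport, and 10 of fatty acid and lipid synthesis.

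SUM159 is a human triple-negative breast cancer line of mesenchymal type. SHP2, the tyrosine phosphatase encoded by PTPN11, relays signals from receptor tyrosine kinases to the MAPK cascade. Cells of 3 groups were measured on Human Gene 1.0 ST arrays, which hold probes along the whole length of each transcript: cells with 1 hairpin against SHP2 (SHP2 sh1, 2 arrays), cells with another (SHP2 sh2, 3 arrays), and cells with a control hairpin (Ctrl shRNA, 2 arrays). All of them carried a doxycycline-inducible lentiviral hairpin and were given doxycycline for 15 days in 2D culture, in medium with 5% serum, insulin and hydrocortisone, so the controls had the inducer, the serum and the insulin as well. The labels do not say whether replicate arrays were separate cultures. The methods mention independent experiments only in general terms, in a number larger than some groups have arrays. The p-values therefore measure only how these arrays vary, and part of that may be technical.

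Cells make cholesterol from acetyl-CoA through mevalonate, the isoprenoid units built from it, squalene and lanosterol. Fatty acids are made from the same acetyl-CoA by carboxylation, chain synthesis, elongation and desaturation. Both routes are controlled by the sterol regulatory element binding proteins (SREBPs), transcription factors made as membrane-bound precursors. When sterols are low, SCAP escorts the precursors to the Golgi, where proteases release the active part. When sterols are high, INSIG proteins hold them in the endoplasmic reticulum. SREBP2, from SREBF2, acts mainly on cholesterol genes and SREBP1, from SREBF1, mainly on fatty acid genes, and insulin raises SREBP1 in tissues such as liver. At their target promoters SREBPs bind sterol regulatory elements, usually close to sites of the cofactors NF-Y and Sp1.

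The promoters were searched for these elements in the letters of the reference genome, and 3 are printed because the results return to their genes. RefSeq promoters (GRCh38.p14, 250 bases before to 50 bases after the start) were listed for 27 of the 30 measured members, and ACAT2, SQLE and FASN had no entry. The sterol regulatory element core was searched as TCACNCCAC, the NF-Y box as CCAAT and the Sp1 box as GGGCGG, each on both strands. The matches to TCACNCCAC and CCAAT in the promoters below do not overlap. The core was found in the promoter of 1 member, SREBF2 (3.70% of 27), and in 1.13% of 35116 promoters in the table. A CCAAT box was found in 17 members (63.0%) and in 34.6% of all promoters, and a GGGCGG box in 25 members (92.6%) and in 45.0% of all promoters. A match is a run of letters and not a measured binding site, and a window without a match says only that these letters are not in it. SREBF2 encodes SREBP2 itself, HMGCS1 the synthase that works before mevalonate is formed, and DHCR7 a reductase at the end of cholesterol synthesis. The promoter of SREBF2 was printed because it held the core, and those of HMGCS1 and DHCR7 were chosen after their values were seen. Capitals mark matches to the core and to the CCAAT box, which reads ATTGG on the other strand.
SREBF2, chr22:41832855-41833154, plus strand: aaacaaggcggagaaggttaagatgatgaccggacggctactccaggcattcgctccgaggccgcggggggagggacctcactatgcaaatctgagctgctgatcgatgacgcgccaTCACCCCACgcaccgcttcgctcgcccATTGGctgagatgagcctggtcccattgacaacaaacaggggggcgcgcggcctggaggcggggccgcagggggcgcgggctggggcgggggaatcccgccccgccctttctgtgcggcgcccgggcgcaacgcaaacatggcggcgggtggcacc
HMGCS1, chr5:43313363-43313662, minus strand: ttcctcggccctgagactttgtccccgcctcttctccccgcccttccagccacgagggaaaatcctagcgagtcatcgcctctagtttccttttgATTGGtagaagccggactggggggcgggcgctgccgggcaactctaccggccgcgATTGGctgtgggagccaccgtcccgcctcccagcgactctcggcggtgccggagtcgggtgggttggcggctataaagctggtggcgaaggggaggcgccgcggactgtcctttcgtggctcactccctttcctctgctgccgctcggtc
DHCR7, chr11:71448344-71448643, minus strand: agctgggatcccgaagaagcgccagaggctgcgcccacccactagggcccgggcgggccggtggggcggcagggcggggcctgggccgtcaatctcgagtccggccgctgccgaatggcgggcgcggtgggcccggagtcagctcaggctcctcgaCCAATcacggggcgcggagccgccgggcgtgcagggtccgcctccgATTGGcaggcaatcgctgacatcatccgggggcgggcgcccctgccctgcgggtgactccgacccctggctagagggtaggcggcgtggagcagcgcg
In SREBF2 the core started 133 bases before the transcription start and was followed by a CCAAT box 106 bases before it. HMGCS1 held CCAAT boxes 155 and 100 bases before its start, and DHCR7 held them 94 and 48 bases before.

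The knockdown itself was visible in PTPN11, which had 7.90 and 6.93 on the log2 scale with SHP2 sh1, 7.96, 7.20 and 7.89 with SHP2 sh2, and 9.53 and 9.18 with Ctrl shRNA. Markers were read on all arrays: VIM, a mesenchymal marker, lay between 11.6 and 12.2 on all 7 arrays, while EPCAM, an epithelial marker, lay between 2.89 and 4.10 and PTPRC, a blood cell marker, between 3.90 and 4.75. KRT8, a luminal keratin, was at 9.73 to 11.2. CDH1, another epithelial marker, was at 5.32 and 5.19 with Ctrl shRNA and at 5.16 to 7.42 over the SHP2 arrays. Its highest values, 7.42 and 7.12, were those of replicate 2 of SHP2 sh1 and of SHP2 sh2. Mesenchymal markers were not all high, with S100A4 at 6.47 to 7.58 and TWIST1 at 7.51 to 8.34 on all 7 arrays. Replicate 2 of SHP2 sh1 and replicate 2 of SHP2 sh2 stood apart from the other arrays. Over all probes the correlation between arrays was 0.981 to 0.992 among the other 5, 0.886 to 0.965 between either of these 2 and the other 5, and 0.972 between the 2. Relative to the control mean, the 4604 genes with the dimmest control signal had medians of 0.26 and 0.53 on these 2 arrays, and the 4605 brightest had medians of -0.61 and -1.01. Leaving them out moved most of the results below, and values without these 2 arrays are given beside them. SHP2 sh1 is then its replicate 1 alone, which weighs as much in a mean of both hairpins as the SHP2 sh2 arrays together. Because this is bulk RNA, fewer cells of a kind and less RNA per cell cannot be told apart.

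No member of the lipid synthesis list passed the test with either hairpin. PTPN11, the targeted gene, did not pass it either. With the mean of both hairpins it was 3.48-fold lower and its p ranked 4 of 18417 genes, with an adjusted p of 0.758 in limma. A gene that did not pass is therefore not shown to be unchanged. With the mean of both SHP2 hairpins set against Ctrl shRNA, 0 of 30 members had an adjusted p under 0.05 in limma with Benjamini-Hochberg adjustment over 18417 genes, and 0% of all genes did. The count was likewise 0 of 30 members and 0% of all genes for SHP2 sh1, for SHP2 sh2 and for SHP2 sh2 against SHP2 sh1. At an unadjusted p under 0.05, 1 of 30 members, HMGCS1, lay below control with the mean of both hairpins, against 1.94% of all genes in either direction. The same gene did so with SHP2 sh2, against 2.35%. With SHP2 sh1 no member reached that level, against 1.09% of all genes, and none did between the hairpins, against 0.63%. The median log2 fold change of the 30 members was -0.05 with SHP2 sh1, -0.32 with SHP2 sh2 and -0.19 with the mean of both, beside 0.04, 0.09 and 0.07 over all genes. Without the 2 arrays that stood apart these medians were 0.14, -0.069 and 0.011, with 14 of 30 members below 0 for the mean of both hairpins against 21 of 30 with all arrays. Over the settings tried, the median ran from -0.35 to 0.14 with SHP2 sh1 and from -0.50 to -0.069 with SHP2 sh2. The comparisons of the 2 hairpins share the same 2 control arrays, so their values are not independent of each other.

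**Figure D1:**
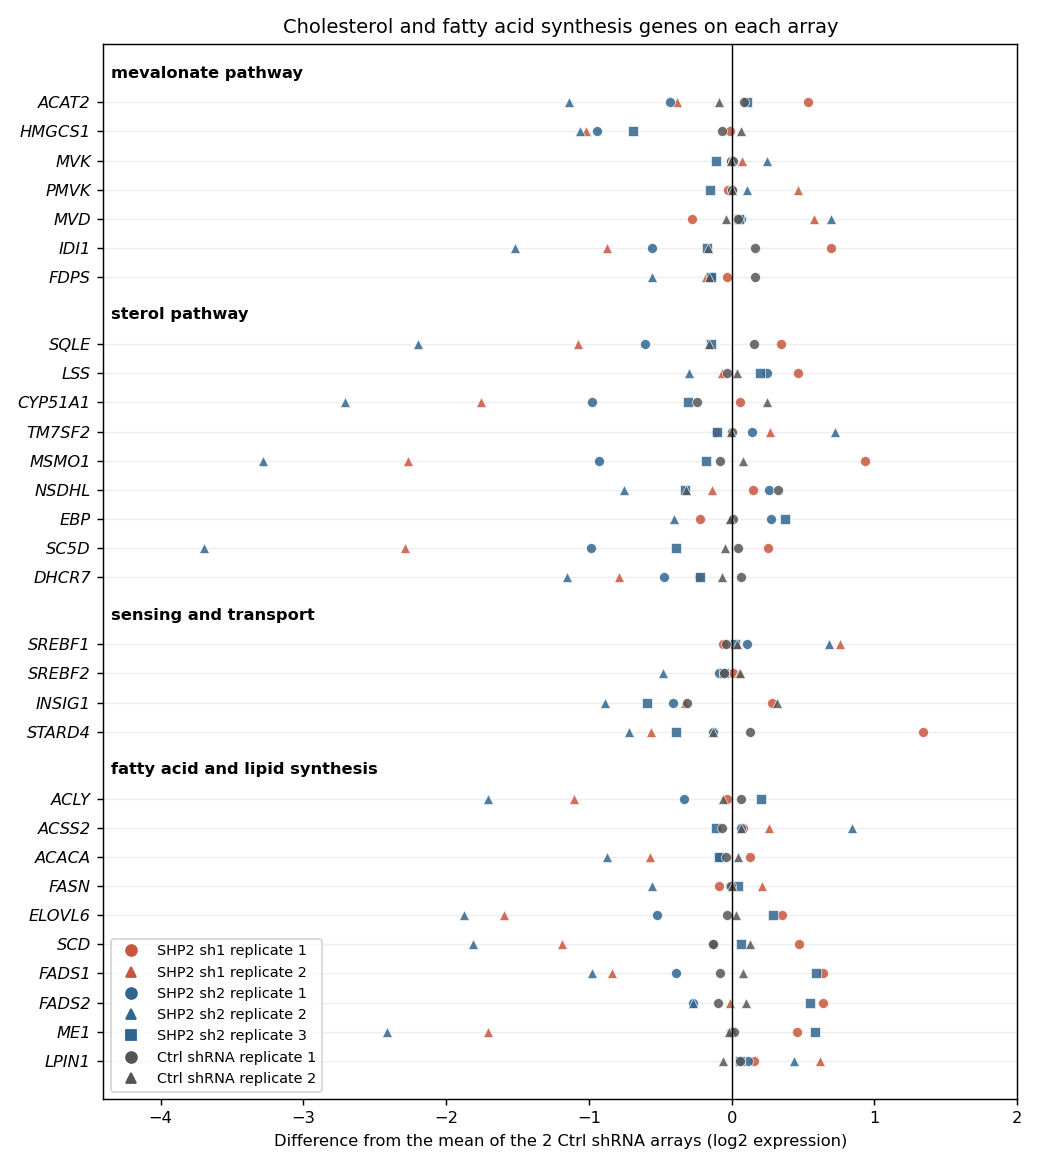
Each point gives 1 array's log2 expression of a gene minus the mean of the 2 Ctrl shRNA arrays (x axis), with the 30 genes down the page in their pathway groups; colours mark the hairpin (red SHP2 sh1, blue SHP2 sh2, grey Ctrl shRNA) and shapes the replicate. The red and blue triangles of the 2 arrays that stood apart lie furthest left for most sterol genes, down to -3.69 for SC5D, whereas SHP2 sh1 replicate 1 (red round points) lies right of 0 for 19 of 30 genes.

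The mevalonate pathway held the member with the smallest p. Its 7 genes had a median log2 fold change of -0.19 with the mean of both hairpins, with 4 below 0 and 3 above, and of -0.052 once the 2 arrays were left out (5 of 7 below 0). HMGCS1, the HMG-CoA synthase that condenses acetyl-CoA units before mevalonate is formed, had 8.37 and 7.36 with SHP2 sh1, 7.44, 7.32 and 7.69 with SHP2 sh2, and 8.32 and 8.45 with Ctrl shRNA. All 3 SHP2 sh2 arrays lay below both controls, whereas SHP2 sh1 replicate 1 lay between them. The log2 fold change of HMGCS1 was -0.71 ± 0.29 (SE) with the mean of both hairpins, or 1.63-fold lower, with a 95% interval of -1.41 to -0.0053 and an adjusted p of 0.758 in limma. With SHP2 sh2 it was -0.90 ± 0.32 (unadjusted p = 0.027, adjusted p = 0.667), and with SHP2 sh1 -0.51 ± 0.35 (adjusted p = 0.995). Without the 2 arrays that stood apart the mean of both hairpins gave -0.42. SHP2 sh2 then gave -0.82, while SHP2 sh1, left with replicate 1 alone, gave -0.012.

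IDI1 and FDPS act later, on the isoprenoid units. IDI1, the isopentenyl diphosphate isomerase, had 8.93 and 7.36 with SHP2 sh1, 7.67, 6.71 and 8.06 with SHP2 sh2, and 8.40 and 8.07 with Ctrl shRNA. The SHP2 sh2 arrays of IDI1 all lay below both controls, the highest of them by a small margin, while the SHP2 sh1 arrays lay on either side. Its log2 fold change with the mean of both was -0.42 ± 0.51 (adjusted p = 0.758) and turned to 0.16 without the 2 arrays. FDPS, which builds farnesyl diphosphate, had 7.68 and 7.54 with SHP2 sh1, 7.57, 7.15 and 7.57 with SHP2 sh2, and 7.88 and 7.55 with Ctrl shRNA. The groups overlapped, with 3 of the 5 SHP2 arrays of FDPS between the 2 controls, at a log2 fold change of -0.19 ± 0.21 (adjusted p = 0.758), and of -0.088 ± 0.13 without the 2 arrays.

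The remaining mevalonate genes had fold changes within their errors, and all turned sign without the 2 arrays. ACAT2, the cytosolic thiolase at the entry to the pathway, had a log2 fold change of -0.20 ± 0.39 with the mean of both hairpins and of 0.19 without the 2 arrays. The 3 kinase and decarboxylase steps between mevalonate and isopentenyl diphosphate sat on the positive side, with log2 fold changes of 0.04 ± 0.18 for MVK, 0.10 ± 0.20 for PMVK and 0.21 ± 0.30 for MVD (SE). Without the 2 arrays they were -0.032 for MVK, -0.052 for PMVK and -0.11 for MVD. MVD, the decarboxylase, was the 1 member whose 3 SHP2 sh2 arrays all lay above both controls, at 7.60, 8.23 and 7.59 against 7.58 and 7.50 with Ctrl shRNA.

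The sterol branch, from squalene to cholesterol, had the lowest median of the 4 groups, at -0.56 with the mean of both hairpins (7 of 9 genes below 0). For the mean of both hairpins, the value and its place rested on the 2 arrays that stood apart. Without them the sterol median was -0.017 (5 of 9 below 0), above the -0.052 of the mevalonate genes. SHP2 sh1 was then its replicate 1 alone, with a sterol median of 0.15. With SHP2 sh2 the sterol median was still the lowest of the 4 groups, at -0.35 (6 of 9 below 0). The next lowest was -0.17, for sensing and transport. DHCR7, the 7-dehydrocholesterol reductase, had 8.46 and 7.90 with SHP2 sh1, 8.21, 7.53 and 8.47 with SHP2 sh2, and 8.75 and 8.62 with Ctrl shRNA. It was the 1 member of 30 with all 5 SHP2 arrays below both controls, by a gap of 0.15. Over all genes 7.17% had all 5 SHP2 arrays below both controls, and 8.13% had them all above, where no member lay. Among the brightest genes, to which DHCR7 belongs, the shares were 16.0% below and 1.72% above. DHCR7 had a log2 fold change of -0.56 ± 0.30 (SE), or 1.48-fold lower, with a 95% interval of -1.29 to 0.16 and an adjusted p of 0.758. Without the 2 arrays it was -0.29 ± 0.11 (adjusted p = 0.614). For the 3 SHP2 arrays that remain, DHCR7 was the 1 member below both controls, against 8.81% of all genes, and LSS the 1 member above them, against 10.1%.

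CYP51A1 and SC5D came next by p in this branch. CYP51A1, the lanosterol demethylase, had 8.91 and 7.10 with SHP2 sh1, 7.87, 6.15 and 8.55 with SHP2 sh2, and 8.61 and 9.10 with Ctrl shRNA. SHP2 sh1 replicate 1 lay between the controls and SHP2 sh2 replicate 3 just under them, while the other 3 SHP2 arrays were lower still. For CYP51A1 the log2 fold change was -1.09 ± 0.73 (SE, 95% interval -2.85 to 0.67, adjusted p = 0.758), and -0.29 ± 0.30 without the 2 arrays. SC5D, the sterol C5-desaturase that works just before DHCR7, had 9.09 and 6.55 with SHP2 sh1, 7.85, 5.14 and 8.45 with SHP2 sh2, and 8.88 and 8.79 with Ctrl shRNA. SHP2 sh1 replicate 1 of SC5D was above both controls and the other 4 SHP2 arrays were below them. Its log2 fold change of -1.35 ± 1.02 was the most negative of the 30 members (2.55-fold lower, 95% interval -3.78 to 1.08, adjusted p = 0.758), and without the 2 arrays it was -0.22 ± 0.22.

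MSMO1 was chosen after its values were seen, for the distance between arrays of the same hairpin. Its arrays ranged over 3.20 with SHP2 sh1 and 3.10 with SHP2 sh2, and those of SC5D over 3.31 with SHP2 sh2. It encodes the methylsterol monooxygenase, which removes methyl groups after CYP51A1. MSMO1 had 10.4 and 7.17 with SHP2 sh1, 8.50, 6.15 and 9.25 with SHP2 sh2, and 9.36 and 9.52 with Ctrl shRNA. The highest and the lowest value of MSMO1 thus both came from SHP2 arrays, and the log2 fold change of -1.07 ± 1.06 (adjusted p = 0.758) turned to 0.19 ± 0.28 without the 2 arrays.

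The other sterol genes had errors as large as their fold changes or nearly so. SQLE, the squalene epoxidase, had a log2 fold change of -0.67 ± 0.62 with the mean of both hairpins, and -0.02 ± 0.21 without the 2 arrays. LSS, which closes the ring of lanosterol, was chosen after its values were seen. It had 8.85 and 8.32 with SHP2 sh1, 8.64, 8.09 and 8.59 with SHP2 sh2, and 8.35 and 8.42 with Ctrl shRNA. For LSS, 3 SHP2 arrays lay above both controls and the 2 that stood apart lay below, so its log2 fold change was 0.12 ± 0.24 over all arrays and 0.34 ± 0.06 without the 2 (unadjusted p = 0.0072, adjusted p = 0.488). NSDHL, EBP and TM7SF2, enzymes of demethylation, isomerisation and C14 reduction, had log2 fold changes of -0.13 ± 0.33, -0.02 ± 0.25 and 0.17 ± 0.26 (SE), which turned to 0.056, 0.052 and -0.046 without the 2 arrays.

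SREBF2 and SREBF1 encode the SREBP precursors. SREBF2 had 8.58 and 8.62 with SHP2 sh1, 8.48, 8.09 and 8.51 with SHP2 sh2, and 8.51 and 8.63 with Ctrl shRNA. Apart from SHP2 sh2 replicate 2, all arrays of SREBF2, the gene with the sterol regulatory element core in its promoter, lay within a narrow band around the controls. Its log2 fold change was -0.09 ± 0.19, with a 95% interval of -0.54 to 0.36 (adjusted p = 0.817), and it turned to 0.12 with cyclic loess scaling. SREBF1 had 7.56 and 8.38 with SHP2 sh1, 7.73, 8.30 and 7.64 with SHP2 sh2, and 7.58 and 7.66 with Ctrl shRNA. The 2 arrays that stood apart carried the high values of SREBF1, and its log2 fold change of 0.31 ± 0.29 (95% interval -0.39 to 1.02, adjusted p = 0.758) was 0.0040 ± 0.07 without them. Transcript levels do not show how much SREBP protein was released from its precursor, which these arrays did not measure.

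INSIG1 and STARD4 are themselves targets of SREBP2. INSIG1, which retains the SREBP precursors, had 7.86 and 7.25 with SHP2 sh1, 7.16, 6.69 and 6.98 with SHP2 sh2, and 7.26 and 7.89 with Ctrl shRNA. All 3 SHP2 sh2 arrays of INSIG1 lay below both controls and below both SHP2 sh1 arrays. The log2 fold change was -0.63 ± 0.30 with SHP2 sh2 (unadjusted p = 0.076, adjusted p = 0.667), -0.02 ± 0.33 with SHP2 sh1 (adjusted p = 0.998) and -0.33 ± 0.28 with the mean of both (adjusted p = 0.758), the last being -0.11 ± 0.24 without the 2 arrays. STARD4, a carrier that moves cholesterol between membranes, was chosen after its values were seen. It had 8.19 and 6.29 with SHP2 sh1, 6.73, 6.13 and 6.47 with SHP2 sh2, and 6.98 and 6.73 with Ctrl shRNA. The single high value of STARD4 was that of SHP2 sh1 replicate 1, and the log2 fold change was -0.01 ± 0.49 with the mean of both hairpins, but 0.54 ± 0.14 without the 2 arrays (adjusted p = 0.569).

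**Figure D2:**
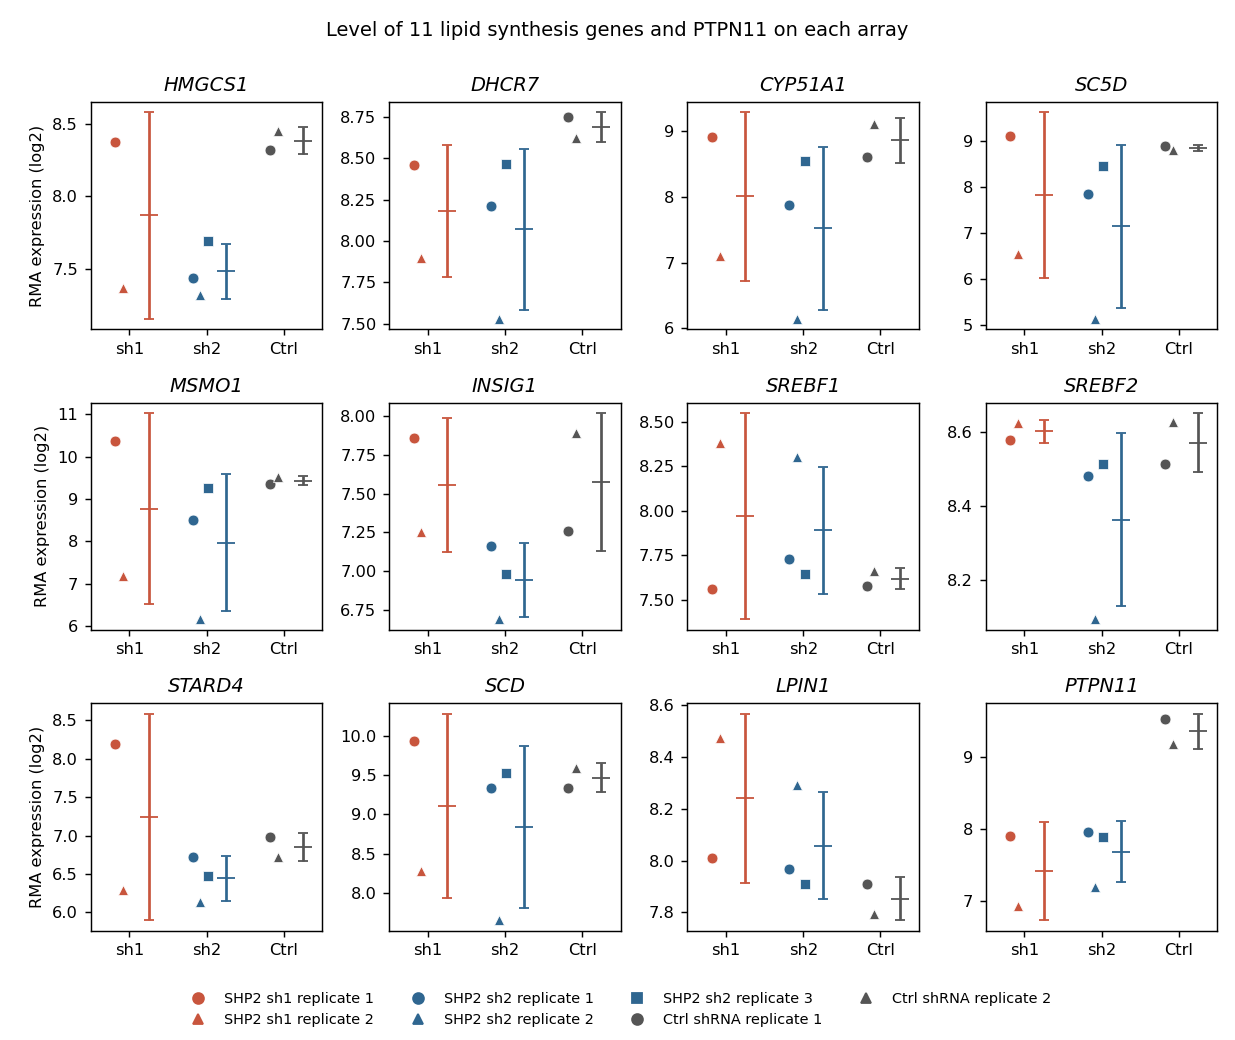
Log2 RMA expression (y axis, a separate scale for each panel) of 11 lipid synthesis genes and PTPN11 by group (x axis); points are arrays, with the shape for the replicate, and the bar beside them is the mean with its SD (n = 2 for SHP2 sh1, 3 for SHP2 sh2 and 2 for Ctrl shRNA). PTPN11 separates the groups by 1.21, DHCR7 by 0.15, and the other 10 genes overlap.

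The fatty acid and lipid genes had a median log2 fold change of -0.23 with the mean of both hairpins, with 7 of 10 below 0. The direction turned without the 2 arrays that stood apart, where the median was 0.12 and 2 of 10, ACLY and FASN, lay below 0. LPIN1, a phosphatidate phosphatase on the way to triglyceride and also a known transcriptional coregulator, had the smallest p of this group. It had 8.01 and 8.47 with SHP2 sh1, 7.97, 8.29 and 7.91 with SHP2 sh2, and 7.91 and 7.79 with Ctrl shRNA. Both SHP2 sh1 arrays of LPIN1 were above both controls, and the lowest SHP2 sh2 array was level with the higher control. Its log2 fold change was 0.30 ± 0.21 (95% interval -0.21 to 0.80, adjusted p = 0.758), and 0.12 ± 0.07 without the 2 arrays.

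ACLY, which releases acetyl-CoA from citrate in the cytosol, had 10.3 and 9.25 with SHP2 sh1, 10.0, 8.65 and 10.6 with SHP2 sh2, and 10.4 and 10.3 with Ctrl shRNA. For ACLY the log2 fold change was -0.59 ± 0.54 (adjusted p = 0.758), and -0.05 ± 0.20 without the 2 arrays. ELOVL6, which extends palmitate to stearate, had 8.63 and 6.68 with SHP2 sh1, 7.75, 6.40 and 8.56 with SHP2 sh2, and 8.24 and 8.31 with Ctrl shRNA. For ELOVL6, 2 SHP2 arrays lay above both controls and 3 below, and its log2 fold change of -0.66 ± 0.69 (adjusted p = 0.758) turned to 0.12 ± 0.30 without the 2 arrays.

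SCD, FADS1 and FADS2 are the desaturases of the list. SCD, the stearoyl-CoA desaturase, was chosen after its values were seen and had 9.94 and 8.28 with SHP2 sh1, 9.34, 7.65 and 9.53 with SHP2 sh2, and 9.34 and 9.60 with Ctrl shRNA. Its log2 fold change was -0.49 ± 0.63 with all arrays and 0.22 ± 0.13 without the 2. FADS1 and FADS2, which act on polyunsaturated fatty acids, had log2 fold changes of -0.18 ± 0.53 and 0.16 ± 0.31, and 0.37 and 0.39 without the 2 arrays. Without the 2 arrays the mean of both hairpins was therefore positive for each desaturase, but single arrays differed. For SCD, FADS1 and FADS2, SHP2 sh2 replicate 1 lay below the control mean, at -0.13, -0.39 and -0.27. SHP2 sh1 replicate 1 lay above it, at 0.47, 0.64 and 0.64, and so did SHP2 sh2 replicate 3, at 0.06, 0.59 and 0.55.

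FASN and ACACA carry out the central steps. FASN, the fatty acid synthase, differed least among the fatty acid genes, with a log2 fold change of -0.06 ± 0.23 and a 95% interval of -0.60 to 0.49, and -0.036 without the 2 arrays. ACACA, the carboxylase that makes malonyl-CoA, had -0.29 ± 0.31, and 0.02 without the 2 arrays. ACSS2, which makes acetyl-CoA from acetate, had 0.22 ± 0.28, and 0.029 without the 2 arrays. ME1, the malic enzyme that supplies NADPH, had -0.62 ± 0.90, the widest error of the group, and 0.37 ± 0.22 without the 2 arrays.

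**Figure D3:**
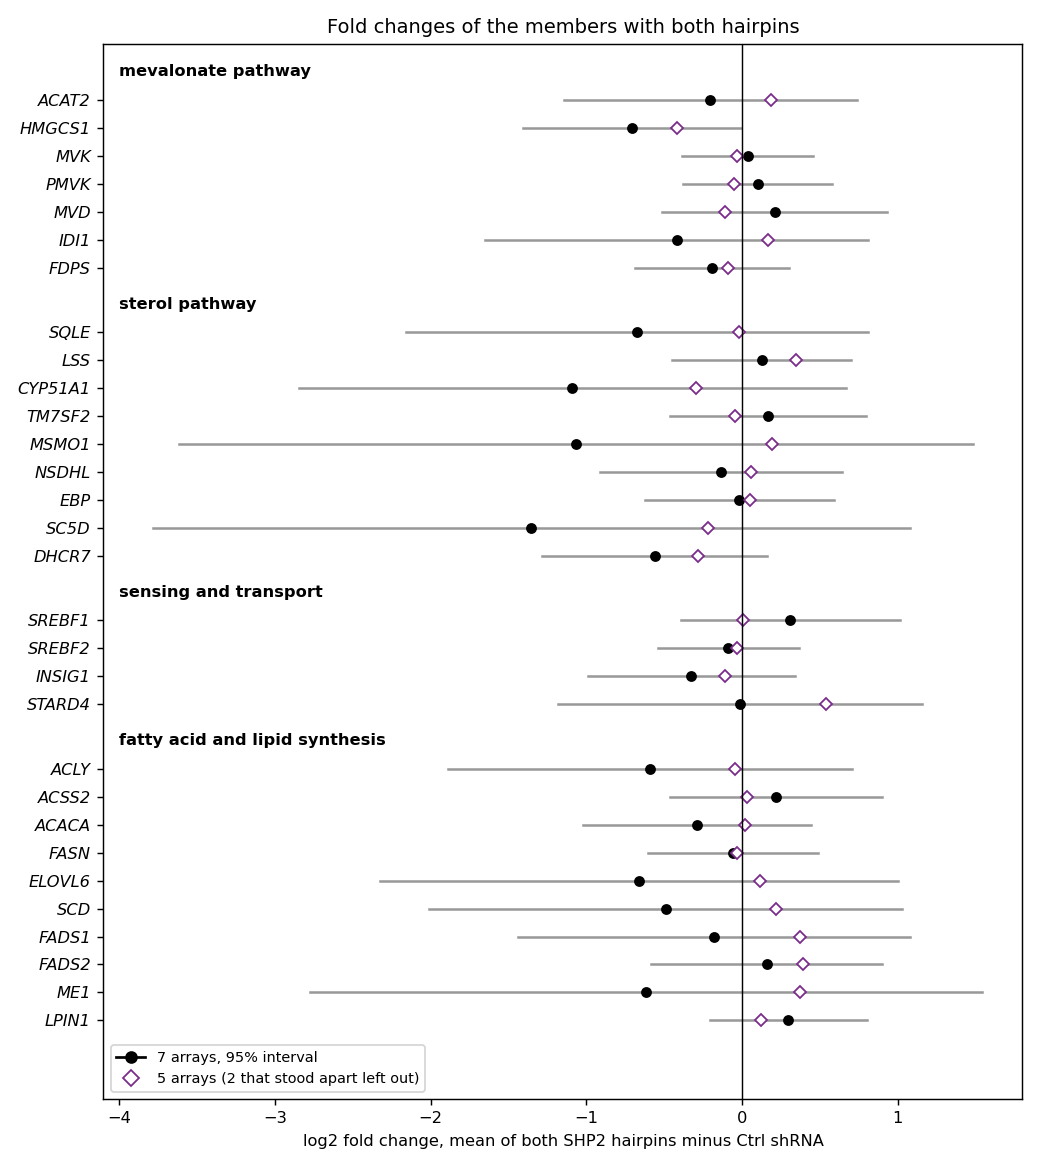
Log2 fold change of each of the 30 genes with the mean of both SHP2 hairpins against Ctrl shRNA (x axis), with the 95% interval from limma over 7 arrays (filled points and lines) and the value over 5 arrays without the 2 that stood apart (open diamonds). All intervals but that of HMGCS1 (-1.41 to -0.0053) include 0, and the diamonds of SC5D, CYP51A1 and MSMO1 lie at -0.22, -0.29 and 0.19.

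The members' medians differed between arrays of the same hairpin. The median difference of the 30 members from the control mean was 0.14 and -0.35 on replicates 1 and 2 of SHP2 sh1, and -0.13, -0.81 and -0.10 on SHP2 sh2 replicates 1, 2 and 3. The 2 arrays that stood apart thus had the lowest medians of the members. For the sterol genes the medians were 0.15 and -0.79 with SHP2 sh1, and -0.47, -1.16 and -0.18 with SHP2 sh2, and for the fatty acid genes 0.25 and -0.70 with SHP2 sh1, and -0.11, -0.93 and 0.13 with SHP2 sh2. The mevalonate genes spread less, at -0.01 and -0.18 with SHP2 sh1, and -0.14, -0.56 and -0.14 with SHP2 sh2. Sensing and transport genes had medians of 0.15 and -0.14 with SHP2 sh1, and of -0.11, -0.60 and -0.22 with SHP2 sh2.

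Most members have bright probes: 17 of 30 were among the 4605 brightest genes by control signal and 0 among the 4604 dimmest. This is an order of probe signals and not of RNA amounts. The brightest genes had medians of 0.0041 and -0.61 with SHP2 sh1, and of -0.18, -1.01 and -0.04 with SHP2 sh2. Their median log2 fold change with the mean of both hairpins was -0.35, below the -0.19 of the members, and -0.046 without the 2 arrays. The part of this shift of bright probes in the values of the members was not tested.

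On both arrays that stood apart, 18 of 30 members lay below both controls, against 34.3% of all genes and 75.7% of the brightest genes, and 7 lay above, against 47.6% of all genes. Among the 18 were HMGCS1, IDI1, FDPS, SQLE, CYP51A1, MSMO1, SC5D, ACLY, ELOVL6 and SCD, and the 7 above were MVK, PMVK, MVD, TM7SF2, SREBF1, ACSS2 and LPIN1. On these same 2 arrays all 7 measured blood cell markers lay above the control mean, with medians of 0.35 and 0.56, and 6 of 8 adipocyte markers did on each, with medians of 0.42 and 0.83. Endothelial markers had medians of 0.35 and 0.57 and luminal markers 0.42 and 0.71. Beside these counts, 10618 and 10421 of all 18417 genes lay above the control mean on the 2 arrays. So did 3945 and 4195 of the 4604 dimmest genes, with medians of 0.26 and 0.53. The part of the markers in the values of the members was not tested. ADIPOQ, the adiponectin gene, was at 5.24 to 6.24 over the SHP2 arrays, against 5.48 and 5.23 with Ctrl shRNA. Other adipocyte markers did not all follow it. FABP4 was at 4.70 and 4.86 on the 2 arrays that stood apart, against 4.24 and 5.99 with Ctrl shRNA. PPARG was at 7.17 and 6.57 on them, against 7.64 and 6.62 with Ctrl shRNA.

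**Figure D4:**
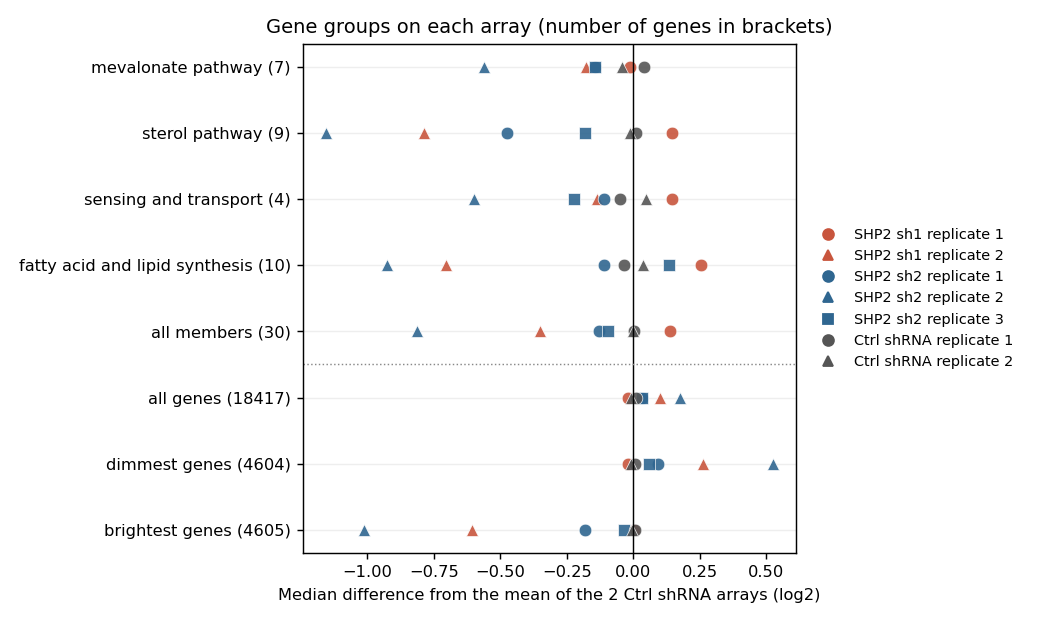
Median difference from the control mean (x axis, log2) of each gene group on each of the 7 arrays, with the 4 pathway groups and all 30 members above the dotted line and all genes, the 4604 dimmest and the 4605 brightest by control signal below it. The red and blue triangles of the 2 arrays that stood apart are lowest for all members (-0.35 and -0.81) and for the brightest genes (-0.61 and -1.01) and highest for the dimmest (0.26 and 0.53).

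Hairpin by hairpin, the arrays were set against both controls. All 3 SHP2 sh2 arrays lay below both controls for 8 of 30 members, namely HMGCS1, IDI1, CYP51A1, MSMO1, SC5D, DHCR7, INSIG1 and ACACA, against 16.1% of all genes and 34.9% of the brightest genes. They lay above both for 1 member, MVD, against 24.2% of all genes. Both SHP2 sh1 arrays lay below both controls for 1 member, DHCR7, against 12.3% of all genes, and above both for ACSS2 and LPIN1, against 12.8%.

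The hairpins themselves were compared directly. The median log2 difference of SHP2 sh2 minus SHP2 sh1 was 0.03 over all genes, with 44.7% below 0. Among the brightest genes it was -0.10, with 69.6% below 0. Over the members it was -0.21, with 24 of 30 below 0. It was -0.20 without the 2 arrays together, but single arrays moved it: it turned to 0.092 without SHP2 sh1 replicate 1, and was -0.53 without SHP2 sh1 replicate 2, -0.043 without SHP2 sh2 replicate 2 and -0.40 without SHP2 sh2 replicate 3. With array weights it was -0.063. MSMO1 and STARD4 had the most negative differences, at -0.80 ± 1.15 and -0.80 ± 0.53 (SE), and ME1 had 0.015 ± 0.98, with adjusted p values of 1.00 in limma. All 3 SHP2 sh2 arrays lay below both SHP2 sh1 arrays for 2 members, SREBF2 and INSIG1, against 3.08% of all genes, and above them for none, against 2.21%. INSIG1 had a difference of -0.61 ± 0.30 (unadjusted p = 0.083, adjusted p = 1.00).

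A further list held other genes of the same pathway. Of its 17 SREBP pathway and cholesterol genes, 13 were measured, and the others were not analysed here. None passed the test, 12 of 13 had a log2 fold change below 0 with the mean of both hairpins, and the median was -0.29. Over all genes 42.0% lay below 0 and among the brightest genes 83.6%. Without the 2 arrays that stood apart, 6 of 13 lay below 0 and the median turned to 0.041. For SHP2 sh2 alone the median was then -0.13, with 9 of 13 below 0, and SHP2 sh1 replicate 1 gave 0.065. LBR, the lamin B receptor, which also has the C14 sterol reductase activity of TM7SF2, had 8.25 and 7.33 with SHP2 sh1, 7.99, 6.88 and 8.17 with SHP2 sh2, and 8.56 and 8.67 with Ctrl shRNA. TMEM97, the sigma-2 receptor that interacts with the cholesterol transporter NPC1, had 8.37 and 8.22 with SHP2 sh1, 8.46, 7.57 and 8.43 with SHP2 sh2, and 8.92 and 8.67 with Ctrl shRNA. All 5 SHP2 arrays lay below both controls in these 2 of 13 genes, against 7.17% of all genes and 16.0% of the brightest genes, to which both belong. In log2 fold change this was -0.88 ± 0.42 for LBR and -0.57 ± 0.29 for TMEM97 (adjusted p = 0.758 each), and without the 2 arrays -0.45 ± 0.09 and -0.39 ± 0.10 (adjusted p = 0.503 and 0.574).

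LXR, a nuclear receptor for oxidised sterols, raises genes of cholesterol export. Of the 6 measured genes of the LXR list, 0 passed, 3 lay on each side of 0 and the median log2 fold change was 0.08, or 0.15 without the 2 arrays that stood apart. APOE, the lipid-carrying apolipoprotein E, had 10.5 and 10.8 with SHP2 sh1, 9.31, 10.0 and 10.1 with SHP2 sh2, and 9.05 and 10.0 with Ctrl shRNA. Both SHP2 sh1 arrays of APOE lay above both controls, with a log2 fold change of 1.10 ± 0.40 (unadjusted p = 0.030, adjusted p = 0.995), and SHP2 sh2 gave 0.27 ± 0.36 (adjusted p = 0.691), while the controls lay 0.95 apart. With the mean of both hairpins it was 0.68, and that of MYLIP, a ubiquitin ligase for lipoprotein receptors, was 0.21 (adjusted p = 0.758 for each).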

How the data were processed

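The 7 arrays were deposited as log2 expression, which the authors made with oligo, whose version is not given in the sources, by robust multi-array averaging, that is background correction, quantile normalization and a summary over each transcript's probes. These log2 values were used as deposited. They run from 1.94 to 13.9, and the SD over probes still ran from 1.92 to 2.15 between arrays. The sample labels name a column kit for the RNA and the paper's methods TRIzol.

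The array annotation gave 1 gene symbol for 19460 of 33297 probes and several for 1754, and 12083 were unlisted. Symbols were updated through the gene ID with RefSeq (GRCh38.p14; 19429 matched). For the 769 genes with more than 1 probe, CYP51A1 among them, the most variable probe by interquartile range was kept, giving 18417 genes with no filter on dim signal. limma (3.58.1, R 4.3.3) fitted the 3 group means over 7 arrays with eBayes, two-sided, with Benjamini-Hochberg adjustment over all genes at 0.05. The step was tested on simulated arrays that varied less than these and held no arrays that stood apart. That test therefore does not show how large a change could be called here. The number of arrays limits the precision.

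Members and background lists were chosen with earlier results of these data known. Per-array values are given for SREBF1, SREBF2, INSIG1 and the 3 members of smallest p in each pathway group, for PTPN11, and for up to 2 genes of each background list. Other genes named with all their values are said to be chosen after these were seen. Promoters were to be printed where they held TCACNCCAC.

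Alternatives were another probe or the mean of probes per gene, a filter on dim genes, quantile, cyclic loess and median scaling, a trended and robust eBayes, array weights, fits to the compared arrays alone, a replicate block, and leaving out each array or both that stood apart. The labels do not say whether replicate numbers pair the arrays, and the main fit did not pair them.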

Additional observations from a re-analysis of the deposited data

How the results depend on the processing

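No member was called under any of 17 settings for the mean of both hairpins, and the smallest adjusted p of a member was 0.319, with the replicate block. The count of genes called with SHP2 sh2 was 30 of 18417 with array weights, 0 of them members, where SHP2 sh2 replicate 1 had a weight of 2.5e-06. The median of the 30 members with the mean of both hairpins ran from -0.45 to 0.011 over the settings. It was highest without both arrays that stood apart, lowest without SHP2 sh1 replicate 1, -0.073 without SHP2 sh1 replicate 2, -0.032 without SHP2 sh2 replicate 2, -0.28 without SHP2 sh2 replicate 3, -0.10 with cyclic loess and -0.28 with the replicate block, which called 0 genes in each comparison. The labels do not say whether arrays of the same replicate number shared a culture or a batch. Deviations of same-numbered arrays correlated at -0.06 and -0.06 between SHP2 sh1 and Ctrl shRNA, and at 0.02 and -0.03 between SHP2 sh2 and Ctrl shRNA. Between SHP2 sh2 and SHP2 sh1 they correlated at 0.62 and 0.85. Of the differently numbered pairs of these hairpins, SHP2 sh1 replicate 1 and SHP2 sh2 replicate 3 correlated at 0.81, and the others at -0.62 to -0.85. With 2 arrays in a group the deviations are equal and opposite, so -0.06 and -0.06 are the same value. Both arrays that stood apart are replicate 2, and a batch shared by the hairpins was not tested.

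The sign of the log2 fold change held in all settings for 11 members, among them HMGCS1, DHCR7, CYP51A1 and SC5D, and turned in at least 1 for 19. The cause was not tested beyond what each setting leaves out. Without both arrays that stood apart it turned for ACAT2 (0.19), MVK (-0.032), PMVK (-0.052), MVD (-0.11), IDI1 (0.16), TM7SF2 (-0.046), MSMO1 (0.19), NSDHL (0.056), EBP (0.052), STARD4 (0.54), ACACA (0.017), ELOVL6 (0.12), SCD (0.22), FADS1 (0.37) and ME1 (0.37). With cyclic loess it turned for MVK (-0.065), NSDHL (0.11), EBP (0.026), SREBF2 (0.12), FASN (0.22) and FADS1 (0.036), with quantile normalization of the summarised values for NSDHL (0.075), EBP (0.067), SREBF2 (0.11) and FASN (0.19), and with array weights for ACAT2 (0.032), MVK (-0.021), EBP (0.091), FASN (0.024) and FADS1 (0.17). With single arrays left out, values ran from -0.43 to 0.025 for ACAT2, -0.013 to 0.076 for MVK, -0.022 to 0.22 for PMVK, -0.0058 to 0.42 for MVD, -0.0071 to 0.26 for LSS, -0.46 to 0.19 for NSDHL, -0.090 to 0.10 for EBP, -0.49 to 0.46 for STARD4, -0.13 to 0.039 for FASN, -0.55 to 0.19 for FADS1 and -0.0038 to 0.32 for FADS2. A group left with 1 array is assumed to vary like the others. Without both arrays that stood apart, SHP2 sh1 is its replicate 1 alone. Of the members that turned then, only MVK (-0.058), FADS1 (0.10) and ME1 (0.29) also turned with SHP2 sh2. ACAT2, IDI1, MSMO1 and STARD4 stayed below 0 with SHP2 sh2, at -0.16, -0.37, -0.56 and -0.26. On SHP2 sh1 replicate 1 they lay above 0, at 0.54, 0.70, 0.94 and 1.34.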

Other observations

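The list of other fatty acid and triglyceride synthesis genes, of which 14 of 16 were measured, held 1 gene with all 5 SHP2 arrays below both controls and 1 with all 5 above. Over all genes these shares were 7.17% and 8.13%. Among the brightest genes, to which GPAM and DGAT1 belong, 16.0% lay below and 1.72% above. GPAM, the mitochondrial acyltransferase that starts glycerolipid synthesis, had 7.67 and 6.68 with SHP2 sh1, 7.67, 6.85 and 7.64 with SHP2 sh2, and 8.55 and 8.74 with Ctrl shRNA. The gap between the groups was 0.88. GPAM had a log2 fold change with the mean of both hairpins of -1.36 ± 0.35 (SE), or 2.57-fold lower, with a 95% interval of -2.21 to -0.52, an unadjusted p of 0.0070 and an adjusted p of 0.758 in limma. Its p ranked 35 of 18417 genes, ahead of all 30 members. Without the 2 arrays that stood apart it was -0.98 ± 0.08 (unadjusted p = 0.00073, adjusted p = 0.469). DGAT1, which makes triglyceride from diacylglycerol, lay on the other side, with 8.55 and 8.81 with SHP2 sh1, 8.60, 8.55 and 8.60 with SHP2 sh2, and 8.40 and 8.04 with Ctrl shRNA (log2 fold change 0.41 ± 0.18, adjusted p = 0.758, and 0.35 ± 0.14 without the 2 arrays). Over the 14 genes the median log2 fold change was 0.08, with 6 below 0 and 8 above, and it turned to -0.032 without the 2 arrays that stood apart. None of the 14 passed the test.

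Of the fatty acid oxidation list, 9 of 10 genes were measured, 0 passed, 5 lay below 0 and 4 above, and the median log2 fold change was -0.12 with the mean of both hairpins, turning to 0.032 without the 2 arrays that stood apart. ACADVL, the very long chain acyl-CoA dehydrogenase, was the 1 of 9 with all 5 SHP2 arrays above both controls. The share was 8.13% over all genes and 1.72% among the brightest genes, to which ACADVL belongs. It had 9.59 and 9.39 with SHP2 sh1, 9.28, 9.20 and 9.35 with SHP2 sh2, and 9.09 and 8.80 with Ctrl shRNA. ACADVL had a log2 fold change of 0.44 ± 0.18 (adjusted p = 0.758), and 0.51 ± 0.12 without the 2 arrays. HADHA, a subunit of the trifunctional protein of the same pathway, had -0.59 ± 0.47 (adjusted p = 0.758), and -0.13 ± 0.21 without the 2 arrays.

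Some deposited values repeat exactly. For 9 of 30 members at least 2 of the 7 arrays held the same value within 1e-06, as FDPS did on SHP2 sh2 replicates 1 and 3, and so did 34.6% of all genes.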
